A study of Homo sapiens with 18 samples.

Results

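Human chromosome 19 carries dense clusters of zinc finger genes, and 56 of them, 27 in band 19p12 and 29 in 19q13, were followed here through an ATAC-Seq experiment on cells with the t(4;11) fusion genes. The genes were taken by symbol from the raw count table, where 56 of 56 were found among 54425 gene rows, each with a single Ensembl identifier. By their RefSeq starts (GRCh38.p14) the 19p12 genes lie in chr19:19792711-23944714 and the 19q13 genes in chr19:51889235-53580269, stretches of 4.15 and 1.69 Mb. Zinc finger genes that lie between them but were not on the list (7 in 19p12, 8 in 19q13) were not counted as members.

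The proteins of these genes bind DNA through a row of zinc fingers and most carry a KRAB domain, which recruits the corepressor TRIM28. TRIM28 in turn brings in the histone methyltransferase SETDB1 and HP1 proteins, which build a closed, repressive chromatin, and many of the proteins act in this way on transposable elements. The genes arose by tandem duplication, so neighbours resemble each other in sequence and in promoter. ATAC-Seq counts DNA fragments that a transposase could cut out of open chromatin, so the values below describe how often fragments were recovered at a gene and not its transcription.

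The cells were HEK293T, an established human embryonic kidney line. MLL-AF4 cells held a doxycycline-inducible copy of that fusion gene and AF4-MLL cells an inducible copy of the reciprocal fusion gene; co-expression cells combined constitutive MLL-AF4 with inducible AF4-MLL. The inducible transgenes were switched on in all 3 settings with doxycycline (1 µg/ml, 48 h), and 3 biological replicates per setting were taken on day 3 and on day 28, giving 18 libraries in 6 groups. All constructs were Sleeping Beauty vectors. The constitutive MLL-AF4 line was selected with puromycin, and whether it was 1 clone is not given in the sources used here. Per the methods of the study, co-expression cells received blasticidin together with doxycycline for 48 h. The part of blasticidin in the values was not tested. The labels call the cells stably transfected, whereas the methods of the study describe AF4-MLL in co-expression cells as transiently transfected, with doxycycline withdrawn on day 3 and the plasmid lost afterwards. No library without a fusion construct was analysed here, so settings were compared with each other and days with each other.

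The libraries were shallow for single genes. They held 442159 to 3539937 counts, of which genes of the mitochondrial genome took 32.7 to 45.6% on day 3 and 63.6 to 68.5% on day 28, leaving 297567 to 1116385 nuclear counts. The summed members had between 143 and 529 counts in a library. Accessibility does not mark the tissue sharply: the kidney genes PAX2, LHX1, EYA1 and HOXD8 had 399, 321, 607 and 1067 counts over the 18 libraries, and the blood genes PTPRC, SPI1, CD3E and CD34 had 317, 468, 50 and 361.

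The promoters show how alike the genes within a cluster are and how far the clusters differ. A RefSeq promoter window (250 bases before to 50 after the first-listed start, GRCh38.p14) was found for 46 of 56 members, 22 in 19p12 and 24 in 19q13. For 19p12 the windows of the genes with the most counts (ZNF431, chr19:21141930-21142059, plus strand) and the fewest among the 22 with a window (ZNF730, chr19:23116915-23117044, plus strand) are given, with ZNF100 (chr19:21767560-21767689, minus strand) and ZNF91 (chr19:23395452-23395581, minus strand), which had the smallest p in the most comparisons below. Each runs from 110 bases before to 20 after the start, in the direction of transcription, and capitals mark CCAAT or its reverse complement ATTGG, and CCGGAA or its reverse complement TTCCGG. The start used for ZNF730 lies inside its gene span, which begins at chr19:23075211, so its window is not at the outermost start.
ZNF431: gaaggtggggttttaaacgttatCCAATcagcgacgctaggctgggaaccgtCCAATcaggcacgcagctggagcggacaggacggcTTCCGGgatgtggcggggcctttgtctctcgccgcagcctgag
ZNF100: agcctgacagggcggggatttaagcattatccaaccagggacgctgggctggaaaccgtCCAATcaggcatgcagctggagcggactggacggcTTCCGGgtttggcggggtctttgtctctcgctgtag
ZNF91: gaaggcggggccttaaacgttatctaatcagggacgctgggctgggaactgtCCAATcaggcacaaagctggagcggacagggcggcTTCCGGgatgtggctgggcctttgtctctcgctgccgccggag
ZNF730: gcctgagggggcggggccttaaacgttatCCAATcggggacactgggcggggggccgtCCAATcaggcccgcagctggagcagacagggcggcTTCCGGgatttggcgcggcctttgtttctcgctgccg

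For 19q13 the same choice, with ZNF701 taken from a tie with ZNF83 at 2 comparisons each, gave ZNF765 (chr19:53395039-53395168, plus strand) with the most counts, ZNF415 (chr19:53132891-53133020, minus strand) with the fewest counts, and ZNF611 (chr19:52735025-52735154, minus strand) and ZNF701 (chr19:52570177-52570306, plus strand), with capitals as before.
ZNF765: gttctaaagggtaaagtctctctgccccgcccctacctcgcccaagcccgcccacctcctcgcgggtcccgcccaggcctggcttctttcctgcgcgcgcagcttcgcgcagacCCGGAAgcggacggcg
ZNF611: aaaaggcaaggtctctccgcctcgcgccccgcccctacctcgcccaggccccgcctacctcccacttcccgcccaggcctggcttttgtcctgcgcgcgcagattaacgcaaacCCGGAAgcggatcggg
ZNF701: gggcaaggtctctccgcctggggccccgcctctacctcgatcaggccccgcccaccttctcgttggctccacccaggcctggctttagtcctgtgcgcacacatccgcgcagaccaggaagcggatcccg
ZNF415: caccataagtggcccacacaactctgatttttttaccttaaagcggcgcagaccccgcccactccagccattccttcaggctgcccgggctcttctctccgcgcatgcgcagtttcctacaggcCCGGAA

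All 22 windows of 19p12 held CCAAT, the letters of the CCAAT box, within 120 bases upstream, the copy nearest to the start beginning at positions -58 to -23, and 15 of them held a second copy between -87 and -52. In 19q13, 7 of 24 windows held these letters on either strand, against 35.7% of 27305 promoter windows in all. Words were then sought on either strand by how many windows of 19p12 held them, so they were chosen for these counts. The 8-letter word TCCAATCA, tied with 1 other, stood in 22 of 22 windows of 19p12, in 0 of 24 of 19q13 and in 1.61% of all. The 12-letter word CTGTCACTCAGG stood in 17 of 22 windows of 19p12, in 0 of 24 of 19q13 and in 37 of all 27305.

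CCGGAA, a core that ETS factors recognise, was present in either direction in 18 of 22 windows of 19p12 and 17 of 24 of 19q13, against 17.6% of all. Its direction was not alike in the clusters. In 19p12 it was read as TTCCGG in 18 windows, 15 of them within 23 bases before the start, whereas in 19q13 it was read as CCGGAA in 16, of which 15 lay behind the start and 8 began at position 5. The core of the GC box (GGGCGG, either strand) stood in 17 of 22 and 20 of 24 windows, against 44.6% of all. The windows of 19q13 were richer in CpG, with 17 to 34 CpG (median 25.5) against 8 to 16 (median 10) in 19p12 and a median of 14 over all windows, so the clusters did not overlap. These counts describe letters in the windows and do not show that a factor binds there.

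Counts were low at most members, and in 19p12 a rich stretch of 5 neighbours held 52.5% of the counts. Summed over the 18 libraries a member had a median of 59.5 counts, compared with 176 for the other 195 protein-coding zinc finger genes on chromosome 19, 319.5 for 276 on other chromosomes, 275 for other protein-coding genes of chromosome 19 and 325 for all 18448 protein-coding genes. Of the 1008 member and library values 121 were 0. A filter that asks for about 10 counts at median library size, in any 3 libraries, kept 17 members (30.4%), 8 in 19p12 and 9 in 19q13. It kept 60% of the other protein-coding zinc finger genes of chromosome 19 and 73.4% of all protein-coding genes. The other 39 members are described by their counts only. The filter asks for 7.97 counts per 1000000 of all counts, mitochondrial ones included, in 3 libraries. Of the 17 members, 8 met it only with the libraries of a certain group (ZNF91, ZNF100, ZNF83, ZNF611, ZNF613, ZNF615, ZNF766 and ZNF845), in each case a group of day 3, so counts and medians over the 17 are descriptions and no support for a difference.

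**Figure D1:**
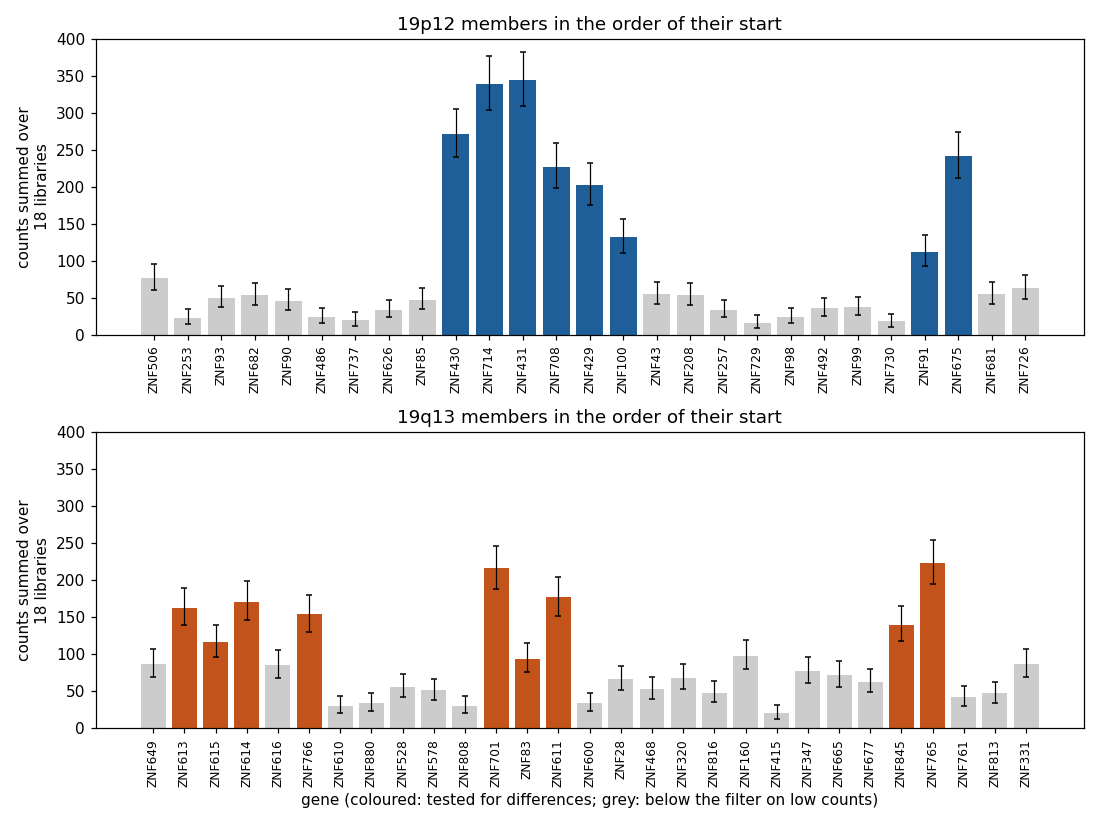
Counts of the 56 members summed over 18 libraries, in the order of their start on chromosome 19, with exact Poisson intervals (95%, counting error only) as error bars; coloured bars are the 17 members tested and grey bars those below the filter. In 19p12 the 5 neighbours from ZNF430 to ZNF429 hold 202 to 344 counts each, while the 9 genes before them hold 20 to 76. The 13 genes after them hold 16 to 242, so the ranges overlap on that side.

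In 19p12 the neighbours ZNF430, ZNF714, ZNF431, ZNF708 and ZNF429 had 271, 339, 344, 227 and 202 counts. This stretch (chr19:21020657-21540668) was picked after its values were seen, so no test was made of it. Its 5 genes, 18.5% of the 27 members, took 52.5% of the 2634 counts of 19p12, and 45.9 to 60.5% in the single libraries. In each of the 18 libraries all 5 were above the median of the other 22 members. Since the stretch was picked from these same libraries, this is a description and no separate support. The 9 genes before the stretch had 20 to 76 counts and the 13 after it 16 to 242, led by ZNF675 (242), ZNF100 (132) and ZNF91 (112). ZNF738 and ZNF493, zinc finger genes inside the stretch that are no members, had 234 and 249 counts.

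The 19q13 members were more even. They summed to 2602 counts, of which the top 5 genes took 36.5%, against 54% for the top 5 of 19p12. The span from the lowest to the highest member was 20 to 223 counts in 19q13 and 16 to 344 in 19p12. Genes with over 100 counts numbered 8 in each cluster, and genes with under 40 numbered 5 in 19q13 and 10 in 19p12.

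Levels between genes were compared as counts per 1000000 (CPM, scaled with the TMM library sizes) per kb of gene span, since exon lengths were not used here. The median level was 0.0514 CPM per kb in 19p12 and 0.114 in 19q13, compared with 0.392 over all protein-coding genes. In 19p12 the highest levels were those of ZNF714 (0.322), ZNF675 (0.285), whose product was described as an inhibitor of TRAF6 signalling, and ZNF430 (0.282), and the lowest those of ZNF730 (0.0111), ZNF729 (0.0207) and ZNF737 (0.0236). In 19q13 the highest were ZNF614 (0.483), ZNF613 (0.34) and ZNF701 (0.3), and the lowest ZNF600 (0.0194), ZNF610 (0.0282) and ZNF808 (0.0283). Neighbours in this order are close: the summed counts of ZNF610 and ZNF808 were both 30, with a counting interval of 20.2 to 42.8. Between span and summed count Spearman's rho was -0.03 over the 56 members, while over 18448 protein-coding genes rho was 0.29; both are descriptions across genes, which are not independent.

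Of the members with a known role, ZNF91, which silences SVA and L1 retrotransposons, had 112 counts (2 to 15 in a library, median 6) and ZNF93, which acts on L1 elements, had 50 (0 to 11, median 2). ZNF331, an imprinted gene, had 87 counts (1 to 9, median 5), and ZNF649 also 87 (1 to 14, median 4). ZNF808, which is needed for pancreas development, had 30 counts (0 to 4, median 1.5) and was at 0 in 4 libraries. ZNF93, ZNF331, ZNF649 and ZNF808 stayed below the filter and were not tested.

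Within a cluster the CpG content of the promoter had little relation to the count of a gene. Over the 22 genes of 19p12 Spearman's rho between CpG and summed count was 0.13, and over the 24 genes of 19q13 it was 0.0039, both descriptions across genes. The genes of the rich stretch had 9 to 14 CpG, within the range of their cluster.

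**Figure D2:**
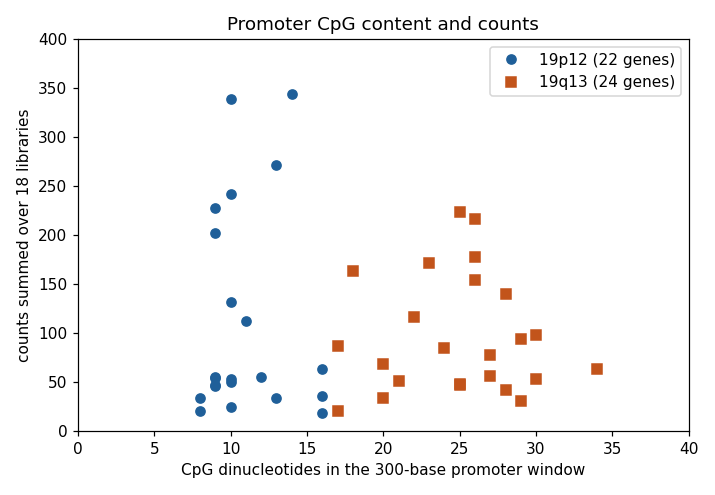
CpG dinucleotides in the 300-base promoter window (x axis) against counts summed over 18 libraries (y axis) for the 46 members with a window, circles for 19p12 and squares for 19q13. The clusters separate along x (8 to 16 against 17 to 34 CpG) and overlap along y.

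Summed over its members, 19p12 was lowest in co-expression cells on day 3. Per 1000000 nuclear counts it was 158, 201 and 177 in these 3 libraries. MLL-AF4 libraries of the same day stood at 206, 230 and 213, those of AF4-MLL at 216, 272 and 256, so the co-expression libraries lay below all others of day 3. The ratio of the pooled counts was 0.827 to MLL-AF4 (335 counts in co-expression, 244 in MLL-AF4, counting interval 0.699 to 0.979) and 0.743 to AF4-MLL (398 counts, 0.641 to 0.862). On day 28 the co-expression libraries stood at 223, 210 and 205, the MLL-AF4 libraries at 307, 256 and 211 and the AF4-MLL libraries at 287, 263 and 222, and the groups overlapped. Such sums over members carry no test here, and fewer cells with an open gene cannot be told apart from less opening per cell.

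Per 1000000 nuclear counts the 19q13 sum was lowest in MLL-AF4 cells on day 3. It was 176, 201 and 179 there and 288, 242 and 278 on day 28, without overlap, with a pooled ratio of 1.44 (209 counts on day 3, 549 on day 28, counting interval 1.22 to 1.69). AF4-MLL cells stood at 220, 252 and 237 on day 3 and 230, 245 and 222 on day 28, and co-expression cells at 199, 210 and 184 and then 251, 222 and 175, with overlapping days in both. On day 3 the co-expression libraries thus lay below those of AF4-MLL for 19q13 as well. The pooled ratio was 0.853 (371 counts in co-expression, 384 in AF4-MLL, counting interval 0.738 to 0.986). Against MLL-AF4 they overlapped, with a pooled ratio of 1.07 (0.9 to 1.27). The ratio of the 19p12 sum to the 19q13 sum ran from 0.76 to 1.25 over all libraries. On day 3 it was 1.14 to 1.19 with MLL-AF4, 0.983 to 1.08 with AF4-MLL and 0.795 to 0.965 under co-expression. On day 28 the settings overlapped, at 0.76 to 1.07, 1 to 1.25 and 0.889 to 1.17 in the same order.

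The rest of chromosome 19 moved between the same groups. The other genes of the chromosome took 3.97 to 4.08% of nuclear counts in MLL-AF4 libraries of day 3. In AF4-MLL and co-expression libraries of that day they took 4.68 to 4.75% and 4.73 to 4.76%. On day 28 they took 4.05 to 4.35% in all settings. Per 1000 counts of these other genes, the 19p12 sum was 3.35 to 4.25 in co-expression cells on day 3, still below the 5.18 to 5.71 of MLL-AF4 and 4.55 to 5.81 of AF4-MLL cells. On this scale the 19q13 sum was also lowest in co-expression cells on day 3, at 3.86 to 4.43. It was 4.39 to 5 with MLL-AF4 and 4.63 to 5.38 with AF4-MLL, so that MLL-AF4 was no longer the lowest and overlapped both. The MLL-AF4 libraries of day 28 stood at 5.56 to 6.8, above those of day 3. Those of AF4-MLL on day 28 stood at 5.42 to 6.05, also above their day 3 range. The days of co-expression cells overlapped, with 4.16 to 6.17 on day 28. The part of the chromosome-wide difference in the sums was not tested.

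**Figure D3:**
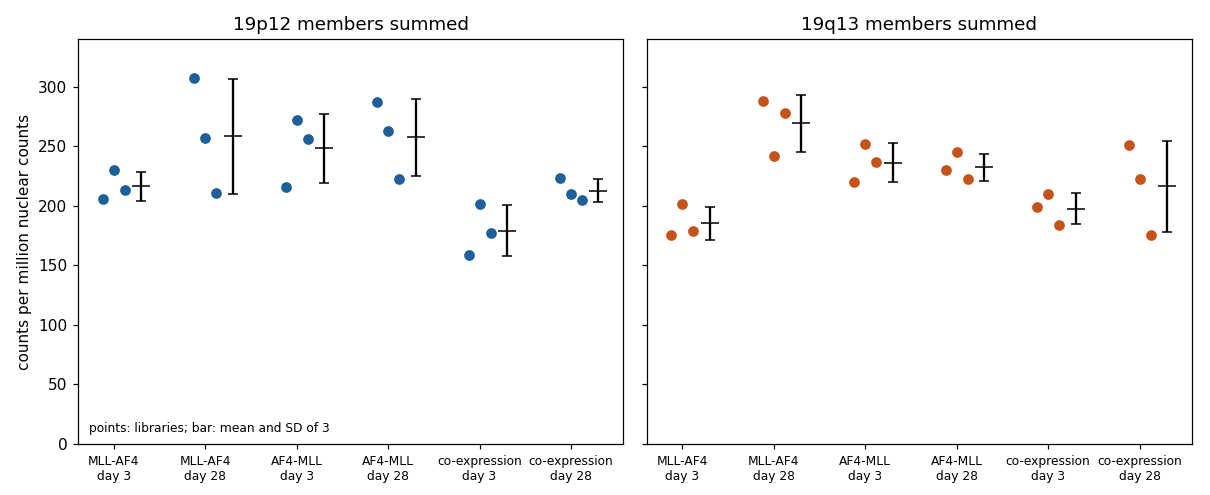
Summed counts of the 27 members of 19p12 (left) and the 29 of 19q13 (right) per 1000000 nuclear counts (y axis) in each library, by setting and day; points are libraries and the bar beside them is the mean with the SD of 3. The 19p12 sum of co-expression cells on day 3 lies at 158 to 201, below both other settings of that day, and the 19q13 sum of MLL-AF4 cells goes from 176 to 201 on day 3 to 242 to 288 on day 28. The 19q13 sum of co-expression cells on day 3 also lies below that of AF4-MLL cells.

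Gene by gene, 0 of 17 tested members passed edgeR's quasi-likelihood test (Benjamini-Hochberg adjusted p under 0.05 over 17660 genes) in any of the 9 pairwise comparisons or the 3 interactions of day with setting. The share of all genes called was 2.87% for the days of MLL-AF4 cells and 0.606% for the days of AF4-MLL cells and also of co-expression cells. On day 3 it was 1.81% for co-expression against MLL-AF4, 1.28% for co-expression against AF4-MLL and 0.142% for AF4-MLL against MLL-AF4. On day 28 it was 1.17%, 1.69% and 0.0793% in the same order, and for the interactions it was 0.232%, 0% and 0.317%. At these shares fewer than 1 of 17 genes is called on average, so a count of 0 does not set the members apart. DESeq2 also called 0 members in each of the 12 contrasts, though in 5 of them it gave no member an adjusted p, and without adjustment it put 0 to 9 of all 56 members under 0.05. The 9 (16.1%) were for the days of MLL-AF4 cells, where 4.03% of the 54425 genes were under 0.05. Neither share was filtered for low counts, and the gap depended on this. For the same days edgeR without the filter put 25% of the 56 members and 7.85% of the 54425 genes under 0.05 unadjusted. With the filter it was 17.6% of the 17 members and 15.8% of the 17660 genes.

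The depth limits what could be seen. The SE of a member's log2 difference was 0.245 to 0.989 (median 0.4), and its 95% interval reached a median of 0.79 to either side. This interval is unadjusted, so for a typical member differences under about this size could not be told from 0 even without adjustment. The adjusted threshold asked for more. ZNF611, at 1.81 for the days of MLL-AF4 cells, was not called (edgeR adjusted p = 0.053). A count of 0 calls thus does not exclude differences larger than 0.79.

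Without adjustment, 19 of the 153 pairs of member and comparison had p under 0.05, 9 of them higher and 10 lower in the group named first, in 11 of the 17 members. For the days, this was 3 of 17 members in MLL-AF4 cells (15.8% of all genes), 2 in AF4-MLL cells (9.29%) and 3 under co-expression (9.51%). On day 3 it was 2 for co-expression against MLL-AF4 (14.5%), 3 for co-expression against AF4-MLL (12.3%) and 2 for AF4-MLL against MLL-AF4 (9.55%). On day 28 it was 2 (11.8%), 2 (12.7%) and 0 (8.26%), and for the interactions 0 (9.73%), 1 (5.05%) and 2 (9.75%). As a share of 17, 3 members are 17.6% and 2 are 11.8%, near the share of all genes.

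The median differences moved with the members included and with single libraries. Between day 3 and day 28 the median log2 difference of the 17 tested members was 0.38 in MLL-AF4 cells, 0.11 in AF4-MLL cells and 0.42 in co-expression cells, where all genes tested had medians of 0.0044, -0.0033 and -0.0013. Over all 56 members, fitted without the filter, it was 0.61, 0.33 and 0.42, with 47, 41 and 41 of 56 above 0, and all 54425 genes of that fit had a median of 0.14 for MLL-AF4 cells and 0.04 for AF4-MLL cells. Leaving out 1 library gave medians of 0.34 to 0.47, 0.02 to 0.38 and 0.23 to 0.48. Each such fit was filtered anew, so its members can differ from the 17 (15 members without MLL-AF4 day 28 replicate 1). This also holds for the ranges without 1 library below. The other genes of chromosome 19 had medians of 0.29, -0.01 and 0.02.

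For co-expression against MLL-AF4 on day 3 the sign turned. The median of the 17 was -0.37 (7 above 0; -0.34 to -0.15 without 1 library), that of all 56 without the filter 0.24 (32 above 0) and that with DESeq2 0.12, while other chromosome 19 genes had 0.24. For co-expression against AF4-MLL on day 3 it was -0.33 over the 17 (3 above 0; -0.36 to -0.29 without 1 library) and -0.18 over the 56 (20 above 0). On day 28 co-expression gave -0.25 against MLL-AF4 (-0.40 to -0.05 without 1 library) and -0.18 against AF4-MLL (-0.29 to -0.16), and over the 56 members -0.15 and -0.17. For AF4-MLL against MLL-AF4 the median of the 17 was 0.15 on day 3 (0.03 to 0.52 without 1 library) and -0.07 on day 28 (-0.22 to 0.17 without 1 library). When only the 2 groups of day 3 were fitted, just 2 members passed the filter, with a median of -0.23. The comparisons share libraries, and no median was tested.

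No steady gap was seen between the clusters in these differences. Over the tested members the median of 19p12 minus that of 19q13 was between -0.31 (co-expression against MLL-AF4, day 28) and 0.11 (days of AF4-MLL cells) on the log2 scale. For co-expression on day 3 it was 0.09 against MLL-AF4 and 0.07 against AF4-MLL, but over all 56 members without the filter it was -0.39 and -0.36. Between single libraries of a group the gap of the tested members had an SD of 0.37.

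**Figure D4:**
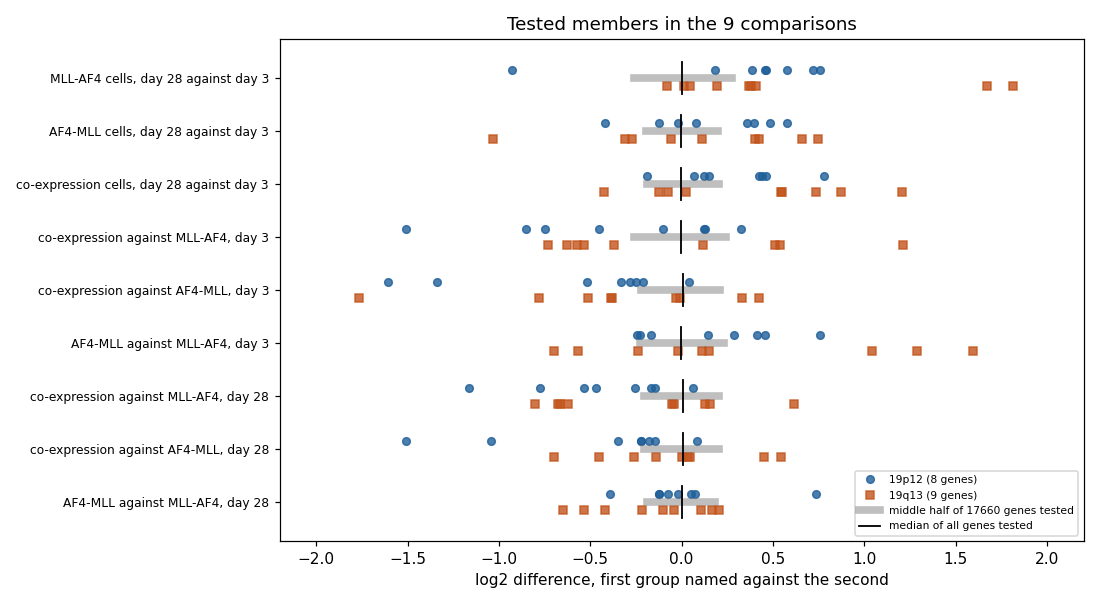
Log2 differences of the 8 tested members of 19p12 (circles) and the 9 of 19q13 (squares) in the 9 comparisons (rows), the group named first against the second; the grey bar is the interquartile range of all 17660 genes tested and the black line their median. No member passed the adjusted threshold, and members of both clusters spread to both sides, from -1.77 to 1.81.

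In the sentences on single genes that follow, whether groups overlap was judged by CPM, and with so few counts the raw counts themselves often tie or overlap. The genes were named for a small p, which favours groups without overlap. The share of all genes whose groups do not overlap was not computed, so separation is a description only.

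Among the members of 19p12, ZNF91 was low in co-expression cells on both days. On day 3 its counts were 3, 6 and 2 (2, 4.47 and 1.37 CPM). MLL-AF4 libraries held 5, 6 and 8 (5.58, 7.61 and 9.25 CPM), those of AF4-MLL 10, 8 and 7 (5.48, 11.6 and 5.39 CPM). The co-expression libraries lay below both other settings without overlap. The log2 difference was -1.51 ± 0.56 (SE) to MLL-AF4 (edgeR adjusted p = 0.152) and -1.34 ± 0.53 to AF4-MLL (adjusted p = 0.228). The gene passed the filter only through 3 libraries of these higher groups, MLL-AF4 and AF4-MLL on day 3, so a difference of this direction was favoured by its selection. On day 28 co-expression libraries held 6, 2 and 2 (2.82, 1.25 and 2.66 CPM), those of AF4-MLL 15, 5 and 11 (9.77, 2.76 and 7.67 CPM) and those of MLL-AF4 4, 8 and 4 (3.3, 4.46 and 3.58 CPM). Here 1 AF4-MLL library reached down to the co-expression libraries, and the difference to AF4-MLL was -1.51 ± 0.52 (edgeR adjusted p = 0.121). Between AF4-MLL and MLL-AF4 on day 28 it was 0.74 ± 0.47 (edgeR adjusted p = 0.713), with the groups overlapping.

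ZNF100 had a like pattern of levels. Under co-expression its counts were 3, 2 and 7 at day 3 and 8, 6 and 0 at day 28 (2, 1.49 and 4.78, then 3.76, 3.74 and 0 CPM). AF4-MLL cells had 13, 7 and 13 on day 3 and 10, 13 and 8 on day 28 (7.12, 10.1 and 10, then 6.51, 7.18 and 5.58 CPM), and on both days the groups did not overlap. The log2 difference of co-expression to AF4-MLL was -1.61 ± 0.48 on day 3 (edgeR adjusted p = 0.0631) and -1.04 ± 0.48 on day 28 (adjusted p = 0.313). ZNF100 passed the filter only with the AF4-MLL libraries of day 3, the higher group of the day 3 comparison. MLL-AF4 cells had 3, 7 and 3 counts on day 3 (3.35, 8.88 and 3.47 CPM) and 9, 9 and 11 on day 28 (7.42, 5.02 and 9.85 CPM). Co-expression lay below the latter without overlap, with a difference of -1.17 ± 0.48 (edgeR adjusted p = 0.279), while AF4-MLL against MLL-AF4 on day 3 gave 0.76 ± 0.49 (adjusted p = 0.659).

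The genes of the rich 19p12 stretch had more counts and gave smaller differences. In co-expression cells ZNF714 had 14, 14 and 9 counts at day 3 and then 38, 20 and 9 (9.33, 10.4 and 6.15, then 17.9, 12.5 and 12 CPM), all higher on day 28 by CPM, with a log2 difference of 0.78 ± 0.3 (edgeR adjusted p = 0.311). ZNF430 in MLL-AF4 cells had 8, 6 and 6 counts on day 3 and 25, 22 and 8 on day 28 (8.93, 7.61 and 6.94, then 20.6, 12.3 and 7.16 CPM), with 1 library of day 28 inside the range of day 3 and a difference of 0.76 ± 0.38 (edgeR adjusted p = 0.299). ZNF431 in AF4-MLL cells had 18, 12 and 14 counts and then 27, 37 and 19 (9.86, 17.4 and 10.8, then 17.6, 20.4 and 13.3 CPM), overlapping, with a difference of 0.58 ± 0.28 (edgeR adjusted p = 0.5).

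In 19q13 the smallest adjusted p of all members was that of ZNF611. In MLL-AF4 cells it had 1, 2 and 3 counts on day 3 and 13, 13 and 9 on day 28 (1.12, 2.54 and 3.47, then 10.7, 7.25 and 8.06 CPM), without overlap. The log2 difference was 1.81 ± 0.57 (edgeR adjusted p = 0.053), and the ratio of the pooled counts was 3.61 with a counting interval of 1.5 to 10.5. The other settings had more on day 3, with 18, 5 and 5 counts for AF4-MLL (9.86, 7.23 and 3.85 CPM) and 8, 10 and 6 for co-expression (5.33, 7.46 and 4.1 CPM). Against MLL-AF4 this gave 1.6 ± 0.59 (edgeR adjusted p = 0.328) and 1.21 ± 0.62 (adjusted p = 0.344), again without overlap. The 3 libraries that carried ZNF611 through the filter were from these higher groups of day 3.

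ZNF845 followed ZNF611 in its low counts in MLL-AF4 cells on day 3. It had 2, 3 and 2 counts there and 12, 18 and 7 on day 28 (2.23, 3.81 and 2.31, then 9.89, 10 and 6.27 CPM), with a log2 difference of 1.67 ± 0.55 (edgeR adjusted p = 0.0689), without overlap. On day 28 AF4-MLL cells had 9, 8 and 10 counts (5.86, 4.42 and 6.98 CPM), overlapping those of MLL-AF4, with a difference of -0.65 ± 0.39 (edgeR adjusted p = 0.683). The change of the difference between AF4-MLL and MLL-AF4 from day 3 to day 28 was -1.94 ± 0.7 on the log2 scale (edgeR adjusted p = 0.274). ZNF845 passed the filter only through the AF4-MLL libraries of day 3, which enter this last value.

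ZNF83 was highest in AF4-MLL cells on day 3, with 12, 5 and 11 counts (6.58, 7.23 and 8.48 CPM), and it passed the filter only through these 3 libraries, so it had to be high there to be tested. Co-expression cells of that day had 2, 5 and 2 counts (1.33, 3.73 and 1.37 CPM), below without overlap, with a log2 difference of -1.77 ± 0.54 (edgeR adjusted p = 0.0724). AF4-MLL cells on day 28 had 4, 10 and 3 counts (2.6, 5.52 and 2.09 CPM), also without overlap, with a difference of -1.03 ± 0.47 (edgeR adjusted p = 0.456). ZNF766 had 3, 5 and 10 counts under co-expression at day 3 and 23, 15 and 6 on day 28 (2, 3.73 and 6.83, then 10.8, 9.34 and 7.98 CPM), all higher on day 28 by CPM, with a difference of 1.21 ± 0.41 (edgeR adjusted p = 0.201).

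ZNF701 was the 19q13 member with the smallest p for co-expression on day 28. It had 20, 7 and 2 counts there (9.4, 4.36 and 2.66 CPM). With MLL-AF4 it had 21, 13 and 12 (17.3, 7.25 and 10.7 CPM), with AF4-MLL 14, 22 and 14 (9.12, 12.2 and 9.77 CPM). The groups overlapped in both comparisons, with log2 differences of -0.8 ± 0.36 (edgeR adjusted p = 0.342) and -0.7 ± 0.36 (adjusted p = 0.399).

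**Figure D5:**
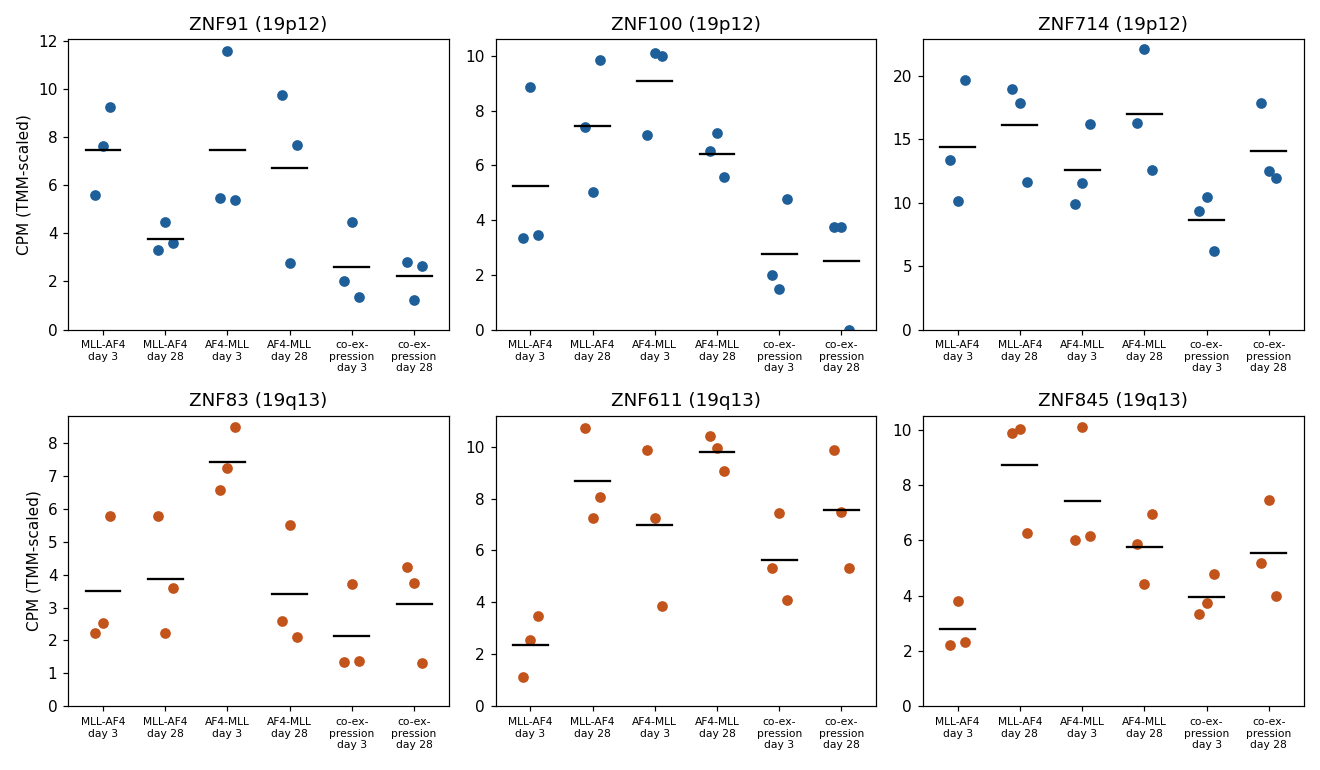
CPM (TMM-scaled, y axis, each panel with its own range from 0) of 6 members in every library by setting and day, blue for 19p12 and orange for 19q13; points are libraries and lines group means. ZNF91 and ZNF100 are low in co-expression cells on both days, ZNF83 is highest in AF4-MLL cells on day 3, and ZNF611 and ZNF845 are lowest in MLL-AF4 cells on day 3, none past the adjusted threshold.

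The partners of the KRAB proteins gave no call either. Of 17 genes for TRIM28 and its partners (TRIM28, SETDB1, ATF7IP, the HP1 genes CBX1, CBX3 and CBX5, the remodellers CHD3 and CHD4, HDAC1, HDAC2, TASOR, MPHOSPH8, PPHLN1, MORC2, ATRX, ZNF274 and DNMT1) all 17 were tested, and 0 rose and 0 fell in each of the 12 contrasts by edgeR's adjusted p. Without adjustment 5 of 17 had p under 0.05 in the interaction of day with co-expression against AF4-MLL, where 5.05% of all genes did, and 0 to 3 in the other 11 contrasts, where 8.26 to 15.8% of all genes did. Their median log2 difference was 0.31 for the days of MLL-AF4 cells and between -0.02 and 0.14 in the other pairwise comparisons.

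Counts of single members carry a further limit. Of the 56 genes, 39 overlap another RefSeq gene, among them ZNF600 with ZNF28 and ZNF610 with ZNF880, and near-identical neighbours can share reads. How the counting treated such reads is not given in the sources used here, so the split of counts between close relatives is uncertain.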

How the data were processed

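ATAC-Seq was measured in 18 libraries of HEK293T cells (6 groups of 3, grouped by the labels). The authors deposited 1 table of raw counts per gene; per the labels, bcl2fastq, Bowtie2, HTSeq and GRCh38 were used, without versions. The region counted per gene and the treatment of duplicates, multiply mapped reads and the transposase offset are not given in the sources used here, and each could shift counts between similar genes. Counts were tested with edgeR 4.0.16 (R 4.3.3; quasi-likelihood, TMM, filterByExpr with a minimum count of 10 and total of 15, all 18 libraries, Benjamini-Hochberg over 17660 genes, threshold 0.05), checked on simulated data. CPM are counts per 1000000 TMM-scaled counts; nuclear counts leave out genes of the mitochondrial genome. Counting intervals are exact (95%) and cover counting error only. Promoter windows and gene positions came from RefSeq. Members and lists were chosen with earlier results of these data known. Named genes are, per comparison and cluster, the tested member with the smallest p, the 3 highest and 3 lowest per kb in each cluster, and 6 with a known role (ZNF91, ZNF93, ZNF331, ZNF675, ZNF808, ZNF649). ZNF738 and ZNF493 and the 5-gene stretch were picked after their values were seen. Nothing says that replicates were separate cultures beyond the label of biological replicate. Alternatives included DESeq2 1.42.0, other scalings and filters, and leaving out libraries.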

Additional observations from a re-analysis of the deposited data

How the results depend on the processing

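No member was called by edgeR with DESeq2 size factors, with mitochondrial genes and copies left out, with a loess offset, without a filter, with a mean of at least 10 counts, with only the groups compared, or in the 18 fits that leave out 1 library. Scaling by library size alone called 2, 9 and 6 of 17 members, all lower on day 28, for the days of MLL-AF4, AF4-MLL and co-expression cells, against 64.9, 87.7 and 88.1% of all genes; there the median of all genes was -0.87, -1.06 and -1.07, beside the higher mitochondrial share, and ZNF430 (-0.12), ZNF431 (-0.50) and ZNF714 (-0.30) changed sign. The selection used by the study (unadjusted p, fold and reads) picked 2, 1 and 1 of 17 members for the days (2.54, 1.14 and 1.19% of all genes), 1, 3 and 2 on day 3 (co-expression against MLL-AF4, against AF4-MLL, AF4-MLL against MLL-AF4; 2.79, 1.79 and 1.51%), 1 and 2 for co-expression on day 28 (1.29 and 1.36%) and 1 and 2 in the interactions with AF4-MLL (1.52 and 3.39%). The gap between cluster medians for co-expression on day 3, against MLL-AF4 and AF4-MLL, turned from 0.09 and 0.07 and was -0.42 and -0.39 with DESeq2 and -0.39 and -0.36 without a filter. With a mean of at least 10 counts it was 0.46 against MLL-AF4 on day 3, 0.58 between the single fusions that day and 0.13 for co-expression against MLL-AF4 on day 28; the cause was not tested. Leaving out 1 library, with the filter run again, which can change the members kept, also moved the gap. For the days of AF4-MLL cells it ran from -0.32 (without AF4-MLL day 28 replicate 1) to 0.20. For co-expression against AF4-MLL on day 3 it ran from -0.30 (without AF4-MLL day 3 replicate 1) to 0.16. With the replicate number as a block 0 members were called and the lowest edgeR adjusted p was 0.0571. Same-numbered libraries did not visibly deviate together (0 of 27 pairs with a correlation over 0.1). Counting error at this depth can hide a shared deviation, so the check cannot decide whether same-numbered libraries came from the same culture. Levels per exon length were not run, and 1 gap with only the groups compared could not be computed. Low counts limit every value for a single member.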
